A study of Mus musculus with 8 samples.

Results

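Bone morphogenetic proteins (BMPs) are secreted growth factors named for their ability to induce bone, and the genes that restrain or receive them were examined in cultured mouse osteoblasts treated with parathyroid hormone (PTH). The 9 genes were chosen by name as rows of the deposited count table: the secreted antagonists Nog, Grem1, Chrd and Chrdl1, the secreted modulator Twsg1, the decoy receptor Bambi, the type I receptors Bmpr1a and Bmpr1b, and the type II receptor Bmpr2. Each was a single row of the 47706 in the table, and all 9 were among the 16736 rows that passed the filter on low counts.

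A BMP dimer assembles type I and type II serine/threonine kinase receptors. The type II receptor then phosphorylates the type I receptor, which phosphorylates SMAD1, SMAD5 and SMAD9, and these enter the nucleus with SMAD4 to change transcription. Outside the cell, noggin, gremlin and the chordins bind BMPs and keep them from their receptors, and in bone such antagonists are known to limit osteoblast differentiation.

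RNA was sequenced from primary osteoblasts isolated from the skullcap (calvaria) of newborn mice, in 4 samples given PTH and 4 given vehicle. All 8 had been differentiated for 7 days, and the study's methods add serum starvation before the treatment of 24 hours, for which an N-terminal fragment of the hormone was used. The methods describe osteogenic medium, whereas the labels of all 8 samples speak of adipogenic differentiation. Strain and genotype of these cultures are not given in the sources used here. The names of all 8 samples open with "Con", which is not spelled out. The study infected some floxed cells with a virus carrying Cre or GFP, and whether these cultures were infected is not said. Nor is it said whether the 4 samples of a treatment came from separate animals or isolations. The p-values therefore set the difference between treatments against the spread between these samples, which may be technical.

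Total counts lay between 33605610 and 56090654 per PTH-treated sample, the lowest in replicate 2 and the highest in replicate 1, and between 41618108 and 46757836 per vehicle-treated sample. Levels are given in CPM, read counts scaled to a common normalized library size. Tnfsf11, which encodes the osteoclast-inducing cytokine RANKL and is known to be induced by PTH, stood at 1.42 ± 0.365 CPM in vehicle-treated and 128 ± 20.0 CPM in PTH-treated samples (SD, n = 4). All 12 osteoblast markers were expressed well enough to be tested, and 4 of them (Runx2, Sp7, Dmp1 and Pth1r) were lower with PTH and none higher, where 22.5% of all tested genes were lower and 23.3% higher. Their summed level, 76846 to 87934 CPM with vehicle and 73362 to 106142 CPM with PTH, was mostly that of the collagen genes Col1a1 and Col1a2 and so does not show these 4 decreases. The 8 adipocyte markers summed to 45.8 to 65.1 CPM with vehicle and 41.5 to 63.2 CPM with PTH, with leptin at 10 counts or fewer in each sample. Of the 7 adipocyte markers tested, Pparg was lower with PTH (log2 fold change -1.50, edgeR adjusted p = 3.66e-07) and the other 6 did not pass. Among markers of other cells, 3 of 12 macrophage genes were higher with PTH (summed level 1052 to 1717 CPM with vehicle and 1648 to 2118 CPM with PTH), and so were 2 of 5 tested chondrocyte genes of 6 listed (319 to 336 CPM and 372 to 490 CPM), with no gene of either list lower. The 6 endothelial markers, of which Emcn was at 0 in all samples, summed to at most 6.97 CPM, and the 6 skeletal muscle markers to at most 9.34 CPM, and each of these lists had 1 gene higher and 1 lower with PTH. What part these cells had in the results below was not tested.

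Of the 9 genes, PTH raised 3 (Grem1, Nog and Bambi) and lowered 1 (Bmpr1a) at an adjusted p under 0.05 by edgeR's quasi-likelihood test. The other 5 (Chrd, Chrdl1, Twsg1, Bmpr1b and Bmpr2) did not pass. Grem1 moved most, by 4.21-fold, and no other member passed a log2 fold change of 1. These counts stand against a broad response: 23.3% of all tested genes were upregulated and 22.5% were downregulated, so that 3 of 9 members (33.3%) upregulated and 1 of 9 (11.1%) downregulated are not far from the background. With library size alone in place of the normalization used here (trimmed mean of M-values, TMM), the median of all genes shifted by -0.13 on the log2 scale. Under that scaling Nog and Bambi no longer passed, Chrdl1, Twsg1 and Bmpr2 passed as lower, and Chrd changed sign, while Grem1 and Bmpr1a passed as before. The median log2 fold change was -0.05 over the 9 members and -0.00081 over all tested genes. In bulk RNA, a lower level of a transcript can mean fewer cells that express it or less of it per cell, and these cannot be told apart here.

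**Figure D1:**
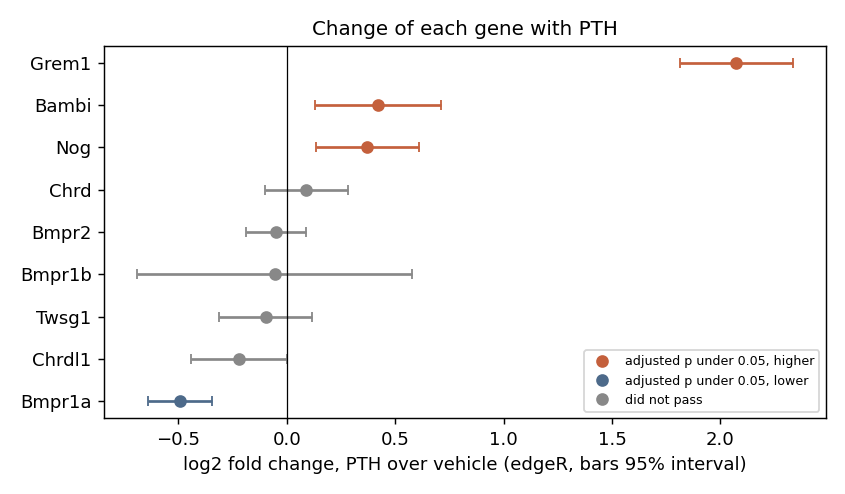
Log2 fold change of each gene, PTH over vehicle, from edgeR's quasi-likelihood fit to 4 samples per treatment, with the 95% interval as a bar. Grem1 stands alone at 2.07, Bambi and Nog lie above 0 and Bmpr1a lies below 0, while the intervals of Chrd, Bmpr2, Bmpr1b and Twsg1 span 0 and that of Chrdl1 ends at it.

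Grem1 encodes gremlin-1, a secreted antagonist of the DAN family that binds BMP2, BMP4 and BMP7. The gene lies on chromosome 2 from 113746164 to 113758646 on the minus strand (GRCm38, GENCODE M21). Its level in vehicle replicates 1 to 4 was 28.0, 28.4, 29.0 and 30.4 CPM, and in PTH replicates 1 to 4 it was 96.0, 144, 139 and 109 CPM. The vehicle samples were nearly level, while every PTH-treated sample was above all of them and the PTH-treated samples spread widely among themselves. This was a log2 fold change of 2.07 (standard error, SE, 0.119, edgeR adjusted p = 4.29e-08), with a 95% interval of 3.52-fold to 5.04-fold. An exact permutation test gave a two-sided p of 0.0286, the smallest that 4 samples against 4 allow. Of all tested genes, 2.82% had a larger log2 fold change than Grem1.

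The stretch before the Grem1 start site is shown because Grem1 is the member that PTH changed most, and that of Bmpr1a because it is the member that fell. PTH raises cAMP in osteoblasts, and cAMP is known to act through CREB at the cAMP response element, whereas SMADs bind GC-rich boxes and a palindromic box. Promoters of 300 bases, with 250 before and 50 after the start site, were taken from RefSeq (GRCm38.p6) for Grem1, Chrd, Twsg1, Bmpr1a, Bmpr2 and, with 3 start sites, Bmpr1b. Both strands were searched for the cAMP response element TGACGTCA (in 1.79% of all 32851 promoters), its core TGACG, which also lies inside the full element (20.8%), the GC-rich SMAD motif GGCGCC (11.9%) and the SMAD box GTCTAGAC (0.213%). The sequences below are 5′ to 3′ on the gene's strand, with the GC-rich SMAD motif in capitals.

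Grem1, minus strand, chr2:113758649-113758898, bases -250 to -1: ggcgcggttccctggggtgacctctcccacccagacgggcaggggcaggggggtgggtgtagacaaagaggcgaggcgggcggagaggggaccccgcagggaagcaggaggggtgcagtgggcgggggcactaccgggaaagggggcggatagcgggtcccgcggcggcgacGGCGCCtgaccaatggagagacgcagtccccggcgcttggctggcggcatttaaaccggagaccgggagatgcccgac

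Bmpr1a, minus strand, chr14:34502688-34502796, bases -250 to -142: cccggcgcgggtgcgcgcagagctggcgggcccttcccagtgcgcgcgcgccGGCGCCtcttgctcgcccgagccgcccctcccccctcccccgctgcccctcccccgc

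The Bmpr1a stretch lies before the RefSeq start site and before the 5′ end of the longest coding transcript in GENCODE, but inside the gene as annotated, since another GENCODE transcript starts farther upstream, at 34503341. Only bases of the window that no GENCODE exon of the gene covers are shown. The GC-rich SMAD motif was found once each in the promoters of Grem1 (first base at -78), Bmpr1a (-198), Bmpr2 (-105) and Chrd (-203). Neither the full cAMP response element nor the SMAD box was found in any of these promoters, and the core was found in that of Chrd alone, at 17 bases after the start site. The Grem1 stretch is 72.0% G and C and the Bmpr1a stretch 84.4%. These are matches of letters, and their absence says only that the letters are not in these windows.

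Nog encodes noggin, which binds BMPs as a dimer and covers the surfaces that meet both receptor types. It lies on chromosome 11 from 89300638 to 89302332 on the minus strand. Nog had 6.69, 7.16, 7.43 and 8.47 CPM in vehicle replicates 1 to 4 and 10.1, 8.91, 9.68 and 9.77 CPM in PTH replicates 1 to 4. All PTH-treated samples were above all vehicle-treated samples, but vehicle replicate 4 and PTH replicate 2 lay close together. The rise was 1.29-fold (log2 fold change 0.37, SE 0.108, adjusted p = 0.0140 by edgeR, exact permutation p = 0.0286). Nog passed whichever of the 8 samples was left out (edgeR adjusted p of 0.00903 to 0.0487), and it rested on 296 to 519 counts per sample.

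Chrd encodes chordin, a large secreted protein that holds BMPs until astacin-type proteases cut it. The gene lies on chromosome 16 from 20733127 to 20742384 on the plus strand. Chrd had 21.8, 18.4, 19.4 and 16.8 CPM in vehicle replicates 1 to 4 and 20.2, 20.0, 20.8 and 20.3 CPM in PTH replicates 1 to 4. The PTH-treated samples all fell inside the range of the vehicle-treated samples. No change was detected (log2 fold change 0.09, edgeR adjusted p = 0.436), and the 95% interval ran from 0.931-fold to 1.22-fold. Thpo lies on the other strand and overlaps the 5′ part of Chrd, with 6 to 52 counts per sample against 666 to 1036 for Chrd. The strand setting of the counting is not given in the sources used here, so reads from the overlap cannot be told apart.

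Chrdl1 encodes chordin-like 1, a secreted relative of chordin that binds BMP4. It lies on the X chromosome from 143285674 to 143394262 on the minus strand and was the most abundant of the 9 transcripts. Chrdl1 had 490, 520, 518 and 478 CPM in vehicle replicates 1 to 4 and 501, 345, 424 and 451 CPM in PTH replicates 1 to 4. PTH replicate 1 lay among the vehicle samples and the other 3 PTH-treated samples lay below them. The log2 fold change was -0.22 (SE 0.101, edgeR adjusted p = 0.0955), with a 95% interval from 0.736-fold to 1-fold. Without PTH replicate 1 it was -0.31 with an edgeR adjusted p of 0.0147, and with PTH replicates 1 and 2 both left out it was -0.20 with an adjusted p of 0.0346. Without PTH replicate 2 alone it was -0.12 (edgeR adjusted p = 0.231), and with library size alone it was -0.35 (0.00533), so both these samples and the scaling move this value.

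Twsg1 encodes twisted gastrulation, which binds BMPs together with chordin and can act for or against BMP signaling. It lies on chromosome 17 from 65921972 to 65951226 on the minus strand. Twsg1 had 208, 235, 239 and 214 CPM in vehicle replicates 1 to 4 and 243, 172, 201 and 221 CPM in PTH replicates 1 to 4. The treatments overlapped, with the highest and the lowest sample of all 8 both in the PTH group. The log2 fold change of -0.10 did not pass (edgeR adjusted p = 0.451), with a 95% interval of 0.805-fold to 1.09-fold.

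**Figure D2:**
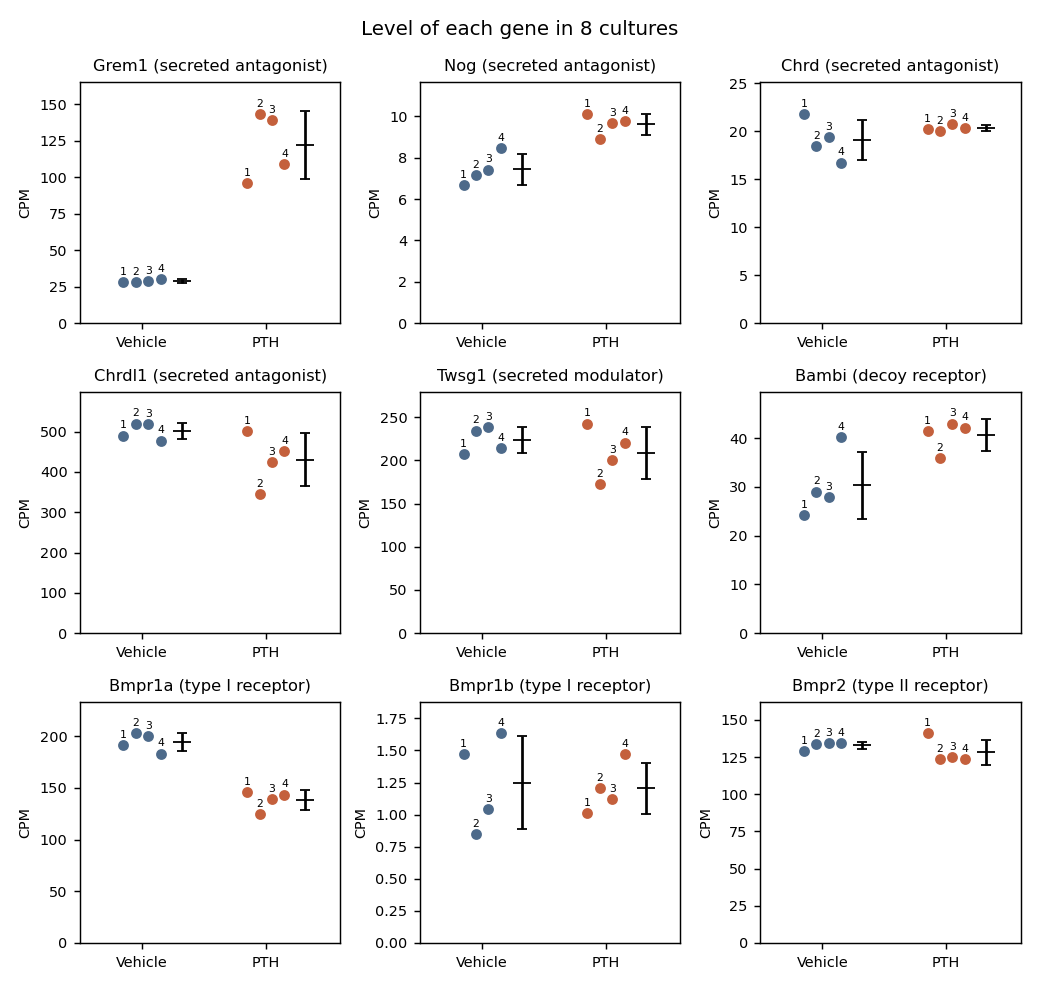
Level of each gene in CPM on a linear axis from 0, with 1 point per culture, the replicate number above it and the mean with its SD (n = 4) beside the points. PTH-treated cultures lie wholly above vehicle for Grem1 and Nog and wholly below it for Bmpr1a, and the treatments overlap for the other 6 genes.

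Within the PTH-treated samples, Nog, Chrdl1, Twsg1 and Bmpr1a followed the same order, highest in replicate 1, then 4, then 3, and lowest in replicate 2, and Grem1 followed the reverse order. The total counts of these samples fell in that order too, 56090654, 43965864, 39559897 and 33605610. The TMM factors, by which CPM values are divided, rose in that order, at 0.914, 0.957, 0.969 and 0.990. With library size alone, Chrdl1, Twsg1 and Grem1 kept their orders, but PTH replicate 1 was no longer the highest for Nog or Bmpr1a. The part of depth and of the scaling in these levels was not tested. The largest and the smallest library are PTH replicates 1 and 2, and without them PTH replicates 3 and 4 were compared with the vehicle samples. In that fit the log2 fold change was 2.10 for Grem1, 0.38 for Nog, 0.49 for Bambi and -0.46 for Bmpr1a, and all 4 passed (edgeR adjusted p of 2.57e-08, 0.0372, 0.0323 and 2.97e-04). This fit is no test of depth, since it removes samples of the PTH group alone.

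Bambi encodes a transmembrane pseudoreceptor that resembles a type I receptor without the kinase domain and blocks signaling by BMPs, activins and TGF-β. It lies on chromosome 18 from 3507923 to 3516404. Bambi had 24.3, 29.0, 27.9 and 40.3 CPM in vehicle replicates 1 to 4 and 41.5, 35.9, 43.0 and 42.2 CPM in PTH replicates 1 to 4. Vehicle replicate 4 stood above the other 3 vehicle samples and above PTH replicate 2, so the treatments overlapped. Bambi rose by 0.42 on the log2 scale (SE 0.133, edgeR adjusted p = 0.0213), while the exact permutation p was 0.0571. Without vehicle replicate 4 the log2 fold change was 0.59 (edgeR adjusted p = 6.33e-04), and Bambi passed in 3 of the 8 fits with 1 sample removed. The call was lost without PTH replicate 3 (adjusted p = 0.0644) or 4 (0.0536) and without vehicle replicate 1 (0.0740), 2 (0.0666) or 3 (0.0683). A processed pseudogene, Bambi-ps1, had 8 to 20 counts per sample against 1087 to 1997 for Bambi with vehicle and 1193 to 2129 with PTH, and reads of near-identical copies may be divided between them.

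Vehicle replicate 4 was also the vehicle sample with the highest level of several genes of mature osteoblasts. The bone sialoprotein gene Ibsp had 2073 CPM there and at most 1308 CPM in the other 3, and the osteoblast transcription factor gene Sp7 had 142 CPM there and at most 109 CPM in the others. The 12 macrophage markers also summed highest there among the vehicle samples, at 1717 CPM, with 1052 CPM in the lowest. Of the vehicle samples, replicate 4 was also the highest for Nog, Grem1, Bmpr1b and, by little, Bmpr2. It was the lowest for Chrd, Chrdl1 and Bmpr1a, and neither for Twsg1. Ibsp, Sp7 and the macrophage sum were chosen after their values were seen. The part of these differences in Bambi, Nog and the other members was not tested.

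Bmpr1a encodes the type I receptor ALK3, which binds BMP2 and BMP4 with high affinity. It lies on chromosome 14 from 34410734 to 34503341 on the minus strand. Bmpr1a had 192, 203, 200 and 183 CPM in vehicle replicates 1 to 4 and 146, 125, 139 and 144 CPM in PTH replicates 1 to 4. Every PTH-treated sample was below every vehicle-treated sample, with a clear gap between the groups. Its log2 fold change of -0.49 (SE 0.0685, edgeR adjusted p = 1.01e-04, exact permutation p = 0.0286) is 0.711-fold, with a 95% interval of 0.641-fold to 0.788-fold. It passed in all 8 fits with 1 sample removed, with log2 fold changes between -0.52 and -0.44. Of all tested genes, 16.3% had a lower log2 fold change. The antisense gene Gm17110 overlaps a 5′ exon of Bmpr1a and had 4 to 29 counts per sample, against 4141 to 9578 for Bmpr1a.

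Bmpr1b encodes another BMP type I receptor, ALK6, known for its role in cartilage and digit formation. It lies on chromosome 3 from 141837136 to 142169425 on the minus strand and was the least abundant member, at 37 to 81 counts with vehicle and 40 to 62 counts with PTH in a sample. Bmpr1b had 1.47, 0.850, 1.04 and 1.63 CPM in vehicle replicates 1 to 4 and 1.01, 1.20, 1.12 and 1.47 CPM in PTH replicates 1 to 4. The PTH-treated samples all lay inside the range of the vehicle samples. No change was detected (log2 fold change -0.06, edgeR adjusted p = 0.890). The 95% interval of 0.620-fold to 1.49-fold is, on the log2 scale, the widest among the members.

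Bmpr2 encodes a BMP type II receptor, whose kinase is constitutively active. It lies on chromosome 1 from 59763400 to 59879014 on the plus strand. Bmpr2 had 129, 134, 134 and 134 CPM in vehicle replicates 1 to 4 and 141, 124, 125 and 124 CPM in PTH replicates 1 to 4. Both groups were tight except for 1 sample each, and PTH replicate 1 was the highest of all 8 while the other 3 PTH-treated samples were below every vehicle sample. The log2 fold change of -0.05 did not pass (edgeR adjusted p = 0.549). The 95% interval was 0.878-fold to 1.06-fold, on the log2 scale the narrowest among the members.

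Across the 9 genes, 3 had no overlap between treatments (Grem1, Nog and Bmpr1a), against 43.0% of all tested genes. Grem1 and Nog lay wholly higher with PTH, as did 21.2% of all tested genes, and Bmpr1a lay wholly lower, as did 21.8%.

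The receptor transcripts were compared within each sample as log2 ratios of CPM plus 0.1. Bmpr1a over Bmpr2 had a mean log2 ratio of 0.55 ± 0.068 with vehicle and 0.10 ± 0.093 with PTH (SD, n = 4), and the treatments did not overlap. This difference of -0.44 gave a two-sided exact permutation p of 0.0286, the smallest possible, and 0.0857 after adjustment over the 3 receptor pairs. With 3 pairs the adjusted p could pass 0.05 only if at least 2 of them reached that smallest value. Bmpr1b over Bmpr2 differed by 0.03 (exact permutation adjusted p = 0.971) and Bmpr1b over Bmpr1a by 0.47 (0.214), and for both pairs the treatments overlapped.

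To compare levels between genes, CPM was divided by the length of all GENCODE exons of the gene in kilobases. With vehicle, the order from the top was Chrdl1 with 74.3 ± 3.09 CPM per kb, Twsg1 with 43.4 ± 2.99, Bmpr1a with 30.6 ± 1.38, Bmpr2 with 7.39 ± 0.142, Grem1 with 6.98 ± 0.260, Bambi with 5.98 ± 1.36, Nog with 4.39 ± 0.442, Chrd with 3.05 ± 0.340 and Bmpr1b with 0.210 ± 0.0612 CPM per kb (SD, n = 4). Sample ranges overlapped between Bmpr2 and Grem1, between Grem1 and Bambi and between Bambi and Nog, and the other neighbours in this order were separate. With PTH, Grem1 reached 29.4 ± 5.57 CPM per kb, which overlapped Twsg1 (40.6 ± 5.82) and lay above Bmpr1a (21.7 ± 1.49) in every sample. The order after Bmpr1a was Bambi (8.01 ± 0.637), Bmpr2 (7.14 ± 0.467), Nog (5.68 ± 0.303), Chrd (3.25 ± 0.0485) and Bmpr1b (0.202 ± 0.0329), in which Bambi and Bmpr2 overlapped. Grem1 therefore stood 5th of the 9 with vehicle and 3rd with PTH, also when the length of the longest coding transcript was used. By that length Bmpr2 stood above Bambi with PTH and Chrd above Nog with both treatments.

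Grem1 made up 5.31%, 5.02%, 5.09% and 5.77% of the summed CPM per kb of the 5 secreted genes in vehicle replicates 1 to 4 and 15.1%, 27.1%, 23.3% and 18.2% in PTH replicates 1 to 4. Chrdl1 held the largest share with both treatments, 56.2% ± 0.699 with vehicle and 44.5% ± 3.56 with PTH. The sum itself overlapped between treatments, at 132 ± 5.74 CPM per kb with vehicle and 143 ± 10.9 with PTH (SD, n = 4). Among the 3 receptor transcripts, Bmpr1a held 80.1% ± 0.868 with vehicle and 74.7% ± 1.16 with PTH, and Bmpr2 held 19.4% ± 0.719 and 24.6% ± 1.21. The receptor sum was 38.2 ± 1.35 CPM per kb with vehicle and 29.1 ± 1.78 with PTH. These shares and sums are descriptions without a test.

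**Figure D3:**
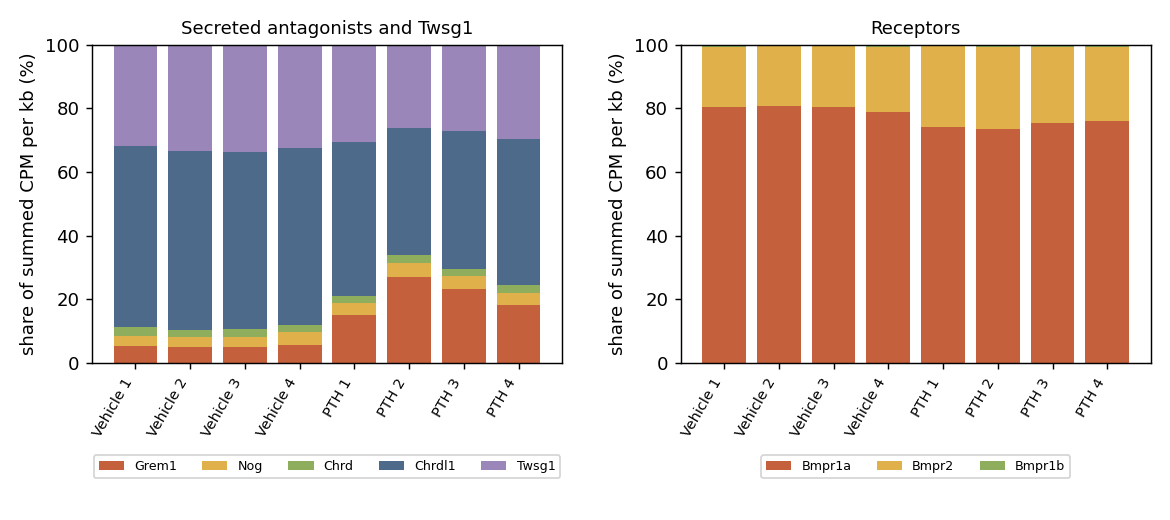
Share of each gene in the summed CPM per kb of the 5 secreted genes (left) and of the 3 receptors (right), as stacked bars of percent for each of the 8 cultures. The Grem1 band widens from at most 5.77% with vehicle to at least 15.1% with PTH, and Bmpr1b is a thin line at the top of the receptor bars.

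Genes of the ligands that these proteins bind were examined next. Of 14 BMP and GDF ligand genes listed, 12 were tested, 4 were upregulated, 5 were downregulated and 3 did not pass, and Bmp10 and Gdf2 had too few counts. Over all tested genes 23.3% were upregulated and 22.5% downregulated, which is the background for this and the following lists. Gdf5, a joint and cartilage ligand, had the largest increase (log2 fold change 2.16, edgeR adjusted p = 0.0109) and had at most 15 counts in any vehicle-treated sample. Bmp4, an inducer of osteoblast differentiation, decreased most. Its level was 101 ± 4.43 CPM with vehicle and 17.3 ± 2.31 CPM with PTH (log2 fold change -2.54, edgeR adjusted p = 8.26e-10). The summed CPM per kb of the ligands was 66.4 ± 0.994 with vehicle and 24.3 ± 3.57 with PTH, and the 5 secreted members had 1.99 ± 0.0589 times the level of the ligands with vehicle and 5.92 ± 0.457 times with PTH (SD, n = 4, no test). Grem1 had 0.156 ± 0.0126 times the CPM per kb of Bmp4 with vehicle and 3.92 ± 1.21 times with PTH.

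Of 18 other secreted antagonists and binding proteins, 13 were tested, of which 4 were upregulated, 3 were downregulated and 6 did not pass, near the background in both directions. Crim1, which encodes a membrane protein that binds BMPs, had the largest increase (log2 fold change 1.17, edgeR adjusted p = 3.71e-07), and Dand5, a DAN family antagonist like Grem1, had the largest decrease, from 3.88 ± 0.595 to 1.95 ± 0.514 CPM (edgeR adjusted p = 0.00299). Cer1, Sost, Chrdl2, Vwc2 and Vwc2l had at most 19 counts in any sample and were not tested. Of the chordin-cleaving proteases, Bmp1 was upregulated (log2 fold change 0.33, edgeR adjusted p = 0.00264), Tll1 did not pass (0.11, adjusted p = 0.300) and Tll2 had no counts.

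Of 9 other receptors and coreceptors tested, 6 were downregulated, 1 was upregulated and 2 did not pass, where 22.5% of all tested genes were downregulated and 23.3% upregulated. The median of their log2 fold changes was -0.51 against -0.00081 over all tested genes. The largest decrease was that of the activin and BMP type II receptor gene Acvr2a (log2 fold change -1.40, edgeR adjusted p = 2.02e-09), and the increase was that of the TGF-β coreceptor gene Tgfbr3 (0.29, adjusted p = 0.00362). Hjv, listed under its older symbol Hfe2, had at most 5 counts in any sample. Of 10 SMAD genes and SMAD inhibitors, 5 were upregulated, 4 were downregulated and 1 did not pass, from Smad9, a receptor-regulated SMAD (-1.04, edgeR adjusted p = 6.40e-04), to Skil, a SMAD corepressor (1.06, adjusted p = 3.32e-07). Of 10 textbook target genes of BMP signaling, 5 were upregulated, 4 were downregulated and 1 did not pass. Of all tested genes 45.8% passed in either direction. Hey1, a transcriptional repressor gene, had the largest increase (log2 fold change 1.30, edgeR adjusted p = 7.16e-05) and Sp7 the largest decrease (-1.78, adjusted p = 4.45e-06).

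**Figure D4:**
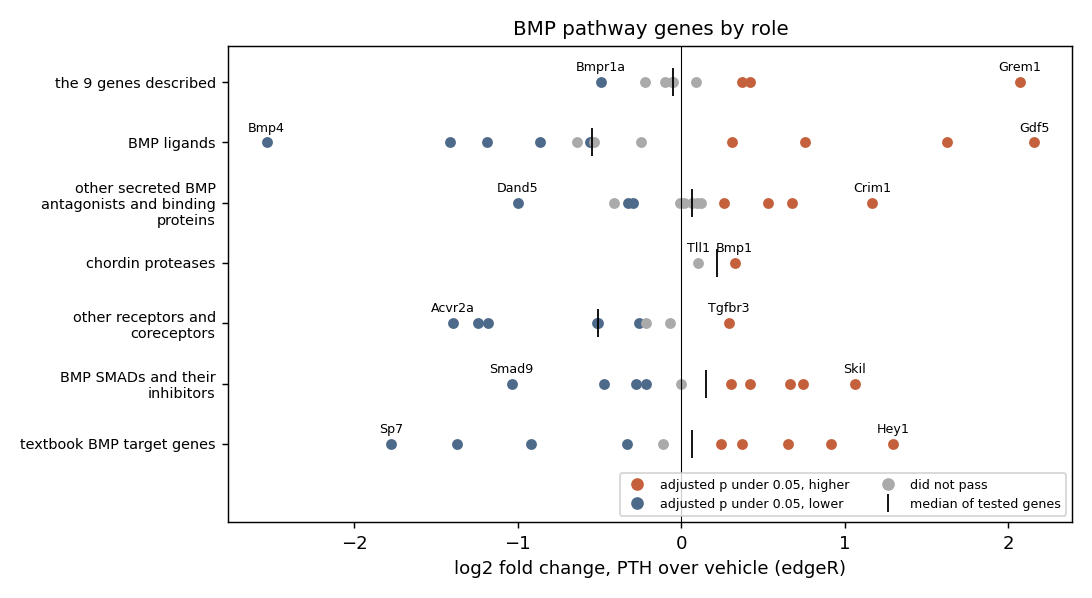
Log2 fold change of each tested gene, PTH over vehicle (edgeR), for the 9 genes and for 6 lists of other BMP pathway genes, with each list's median as a vertical tick and its lowest and highest gene named. Medians lie at -0.55 for the ligands and -0.51 for the other receptors, and every list but the chordin proteases holds genes that passed in both directions.

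Genes whose level moved most like that of Grem1 and of Bmpr1a were sought among 14056 candidates, the other tested genes that averaged 1 CPM or more. Likeness was the root mean square difference over the 8 samples between log2 CPM values, each set relative to its vehicle mean. The nearest to Grem1 were Kif26a (0.121), Utp14b (0.128) and Helz2 (0.152), with log2 fold changes of 2.08, 2.16 and 2.04. The nearest to Bmpr1a were Kifap3 (0.0323), Pid1 (0.0358) and Sorbs2 (0.0368), with log2 fold changes of -0.48, -0.48 and -0.53. Utp14b and Sorbs2 lie in assembled loci that also hold another gene.

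**Figure D5:**
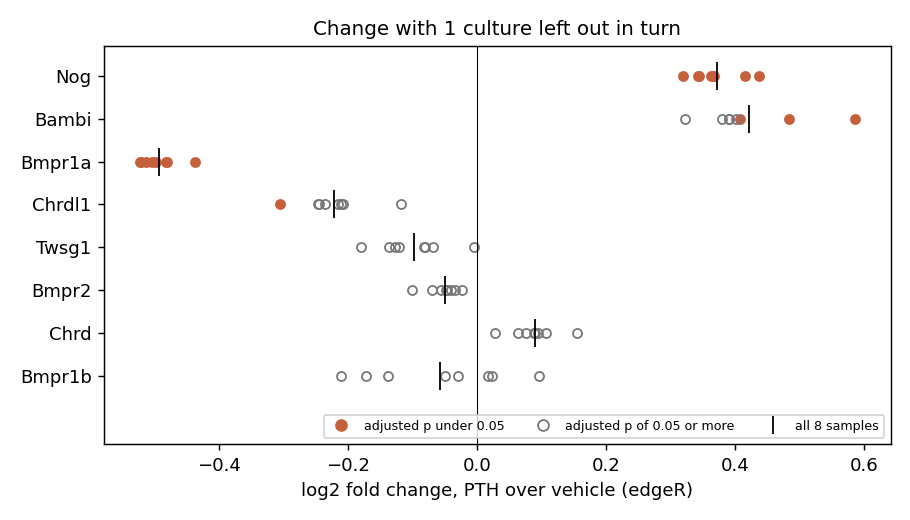
Log2 fold change of each gene except Grem1, PTH over vehicle (edgeR), in 8 fits with 1 culture removed from each (circles, filled where the adjusted p was under 0.05), with the fit to all 8 cultures as a tick. Nog and Bmpr1a passed in all 8 fits, Bambi in 3, Chrdl1 in 1 and the other 4 genes in none, and Bmpr1b fell on both sides of 0. Grem1, not drawn, lay between 1.99 and 2.17.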

How the data were processed

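Poly(A)-enriched RNA of 4 PTH-treated and 4 vehicle-treated cultures was sequenced. The authors used HISAT2 for alignment to GRCm38 (mm10 in the submitters' notes), SAMtools for sorting and StringTie2 for assembly. The deposited values are whole-number counts per gene without normalization, made with the script that accompanies StringTie2, so they derive from transcript coverage. Tool versions, the annotation, the strand setting and the read length entered in that script are not given in the sources used here.

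Samples were grouped by their titles. Rows were filtered with edgeR's filterByExpr (minimum count 10, minimum total 15), normalized by TMM and compared with edgeR 4.0.16 (two-sided quasi-likelihood test, Benjamini-Hochberg adjustment over all 16736 rows, threshold 0.05) in R 4.3.3. Standard errors and 95% intervals come from that fit. Single genes and receptor ratios were compared by two-sided exact permutation tests of log2(CPM + 0.1) over the 70 assignments of samples. The edgeR and DESeq2 1.42.0 steps were tested on simulated data with few changed genes, as many higher as lower. That simulation does not test the choice of normalization. Python 3.11.15, pandas 2.3.3, NumPy 2.4.6, SciPy 1.17.1 and matplotlib 3.10.9 were used. Positions and exon lengths are from GENCODE M21. Intervals and depth statements cover counting and sample spread in these libraries only.

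The members and gene lists were chosen with earlier results of these data known. Named are all members, the called genes with the largest change each way in each pathway list, all genes of pathway lists of 6 or fewer, the 3 nearest patterns of the most changed members, and Tnfsf11. Marker genes, and untested list genes, were named after their values were seen. Alternatives were DESeq2, other normalizations, no filter, the sample number as a block, each sample left out, counts halved, counts summed by symbol and a minimum log2 fold change of 1. After the data were seen, leaving out the largest and smallest library and another gene length were added. A comparison of receptor protein sequences was not made. Promoters of Nog, Chrdl1 and Bambi were not used here.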

Additional observations from a re-analysis of the deposited data

Results flagged for a closer look

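Both values that stood apart are those of Bmpr2, in which 1 sample lay far from the other 3 of its treatment. Bmpr2 was at 129 CPM in vehicle replicate 1 and at 134 CPM in each of the other vehicle samples, and at 141 CPM in PTH replicate 1 against 124 to 125 CPM in the other PTH-treated samples. The gap to the nearest sample was 0.906 of the vehicle range and 0.928 of the PTH range, above Dixon's 95% critical value for 4 samples. The 18 groups of the 9 genes and the 6 groups of the receptor ratios were examined, and chance flags about 1 group in 20. The vehicle range of Bmpr2 was narrow, from 129 to 134 CPM, so that the first of these gaps is small in absolute terms.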

How the results depend on the processing

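Grem1 and Bmpr1a kept their direction and passed 0.05 under every alternative run, though Bmpr1a is below a minimum log2 fold change of 1. With library size alone in place of TMM, the median log2 fold change of all genes shifted by -0.13, the calls over all genes became 2889 up and 5356 down (from 3907 and 3762), and 1 member was upregulated and 4 were downregulated. Under that scaling the log2 fold changes were 0.24 for Nog (edgeR adjusted p = 0.0845) and 0.29 for Bambi (0.104), which no longer passed, -0.35 for Chrdl1 (0.00533), -0.23 for Twsg1 (0.0430) and -0.18 for Bmpr2 (0.0165), which then passed, and -0.035 for Chrd, which changed sign. Relative to the shift these were 0.37 for Nog, 0.42 for Bambi, -0.23 for Chrdl1, -0.10 for Twsg1, -0.05 for Bmpr2 and 0.09 for Chrd. Taking off the shift returns values near those under TMM by construction, so they are no separate check of either scaling. Without the filter on low counts Bambi had 0.38 and did not pass (0.0664). A minimum log2 fold change of 1 left 1 member upregulated and 0 downregulated, 5 and 9 of the pathway list genes, and 1232 and 650 of all genes. The 0 comes from the fold minimum, since Bmpr1a, at -0.49, was the 1 member called as lower without it by edgeR and by DESeq2. Of the members with a negative log2 fold change, Bmpr1a alone had an unadjusted edgeR p under 0.05. Chrdl1 lay just above that threshold, at an unadjusted edgeR p of 0.05001.

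With the largest and smallest library, both PTH-treated, left out, 2 members were downregulated, since Chrdl1 passed (-0.20), and Bmpr1b had 0.053 in place of -0.057. With each sample left out in turn, 2 to 3 members were upregulated and 1 to 2 downregulated. The pathway lists then had 18 to 20 upregulated and 18 to 23 downregulated genes, and over all genes 3412 to 4119 and 3259 to 3955 were called. Log2 fold changes lay between 0.32 and 0.59 for Bambi, -0.31 and -0.12 for Chrdl1 and -0.21 and 0.10 for Bmpr1b, whose sign is not set by these data. They lay between -0.18 and -0.0048 for Twsg1, 0.028 and 0.15 for Chrd and -0.10 and -0.022 for Bmpr2, none of which passed in any of these fits. The Bmpr1b to Bmpr2 ratio difference lay between -0.13 and 0.16.

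The sample number as a replicate block gave log2 fold changes of 2.05 for Grem1, 0.37 for Nog, 0.44 for Bambi and -0.49 for Bmpr1a and changed no call among the 9 genes. After removal of treatment means, same-numbered samples had correlations of -0.041 to 0.027 across genes. No pairing by sample number was seen, which does not exclude it. By length of the longest coding transcript, Grem1 held 3.60% with vehicle and 15.2% with PTH. DESeq2, its size factors, halved counts and counts summed by symbol changed no call among the 9 genes.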
